A study of Mus musculus with 36 samples.

Results

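The immediate early genes described here are Fos, Fosb, Jun, Junb, Egr1, Atf3, Ier2, Ier3, Dusp1 and Zfp36, followed in mouse kidney cortex and medulla after injection of a radioactive peptide. They were taken as every probe annotated to these 10 symbols in a table of 25697 array probes, which gave 1 probe for each gene. The rule used the symbols and no measured value.

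Immediate early genes are transcribed within minutes of a growth factor, a cytokine or a physical stress, without new protein synthesis, because the factors that switch them on are already present in the cell. Fos, Fosb, Jun and Junb encode subunits of the AP-1 transcription factor, Egr1 a zinc finger transcription factor driven by serum response factor and its partners, and Atf3 a stress-induced factor of the ATF/CREB family. The products of Dusp1 and Zfp36 close the response down: the first removes phosphate from MAP kinases and the second speeds the decay of unstable messenger RNAs. In the kidney these genes are known for their quick rise after ischaemia and other tubular injury, and also for their rise during the removal and handling of tissue.

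The animals were Balb/c mice, and both tissues were sampled 24 h after 177Lu-octreotate, a somatostatin analogue that carries the beta-emitter lutetium-177 and is partly retained by the kidney. Injected activities were 0, 1.3, 3.6, 14, 45 and 140 MBq, and each of the 12 groups of tissue and activity held 3 arrays, 36 in all. Total RNA of fresh-frozen tissue was labelled with biotin and hybridised to Illumina bead arrays. No genotype, transgene, sex or age is given for these mice, the labels do not say what the 0 MBq animals received, and whether the 3 arrays within each group stem from different mice is not given either. The p-values therefore measure only the spread between these samples, which may be technical. Since whole tissue was measured, fewer cells of a type and less RNA per cell cannot be told apart in any value that follows.

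Detection was similar across the arrays, with 12152 to 13319 probes detected above the negative controls on each. Cdkn1a, the p53 target that stops the cell cycle, was higher at 140 MBq than at 0 MBq by 3.65 ± 0.35 log2 units in cortex (limma, adjusted p = 4.26e-05) and by 3.05 ± 0.33 in medulla (limma, adjusted p = 0.000123). Few genes separated the tissues: at 0 MBq only 44 of 11471 genes differed between cortex and medulla, and the collecting duct water channel Aqp2 differed by -1.02 without passing the test (limma, adjusted p = 0.181). The other collecting duct markers went both ways and none passed. Cortex minus medulla, Aqp3, Aqp4 and Fxyd4 were at -0.25, -1.59 and -1.16. Scnn1b, Scnn1g, Atp6v1g3, Slc4a1 and Hsd11b2 were at 0.80, 0.59, 0.52, 0.25 and 0.19. Among the tubular markers the tight junction gene Cldn10 alone passed, at -0.58 (limma, adjusted p = 0.0484). Control replicate 2 stood apart from the other controls in both tissues for several of the genes described here, and the main results against 0 MBq are given with and without it.

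Of the 10 members, all but Egr1 and Ier2 have a promoter window in the RefSeq table for build GRCm38.p6, and the 250 bases before each start were searched on both strands. The 4 stretches below end at the base before the start. They are shown because Fos and Junb moved together across the arrays while Dusp1 and Zfp36 varied apart from them. Their letters also differ in the elements known to answer to kinase signalling. Whether the letters bear on how the genes varied was not tested. Capitals mark a cAMP response element (TGACGTCA) or its core (TGACG). They also mark the TATA box, which was searched as TATAAA, and the CArG box, which is the site of serum response factor.
Fos, chr12:85473750-85473889, plus strand: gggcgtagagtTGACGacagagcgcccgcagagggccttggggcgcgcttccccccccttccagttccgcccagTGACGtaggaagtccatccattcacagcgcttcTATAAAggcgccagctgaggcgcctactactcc
Junb, chr8:84978749-84978868, minus strand: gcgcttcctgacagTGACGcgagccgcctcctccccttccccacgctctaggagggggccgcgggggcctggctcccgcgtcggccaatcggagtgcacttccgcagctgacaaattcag
Dusp1, chr17:26508473-26508632, minus strand: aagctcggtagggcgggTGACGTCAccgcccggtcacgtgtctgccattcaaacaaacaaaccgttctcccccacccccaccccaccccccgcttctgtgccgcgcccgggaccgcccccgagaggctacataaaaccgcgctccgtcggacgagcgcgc
Zfp36, chr7:28379229-28379348, minus strand: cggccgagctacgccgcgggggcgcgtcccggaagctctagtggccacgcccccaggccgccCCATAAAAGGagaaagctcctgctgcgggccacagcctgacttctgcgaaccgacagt

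The core was found in 5 of the 8 member windows searched (Fos, Fosb, Junb, Atf3 and Dusp1) and in 17.8% of all 32851 windows of that length. The whole cAMP response element was found in Dusp1 alone among the members, at position -143 from the start, and in 1.55% of all windows; it contains the core on both strands. Among these 8 windows the CArG box was found in Zfp36 alone, at position -58, and in 1.47% of all windows, and the TATA box in Fos alone, at position -33, and in 12.4%. An AP-1 site (TGANTCA) was in 0 of the 8 windows and in 6.75% of all. An EGR site (GCGNGGGCG) was in Fosb and Zfp36 and in 4.70% of all windows, and an SP1 site (GGGCGG) was in 7 of the 8 and in 32.7% of all; in Fosb the EGR site at position -50 overlaps an SP1 site. These matches describe letters and not bound sites. A site more than 250 bases before the start would not be found, and Egr1 had no window. The lack of a match here therefore does not show that a gene lacks the element.

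Levels are background-corrected, normalised log2 signals and are compared within a probe only. Fos, Jun, Junb, Egr1, Ier3, Dusp1 and Zfp36 were readily measured, with a detection p under 0.05 on all 36 arrays except Fos, which missed it on medulla 3.6 MBq replicate 1. The probes for Fosb and for Ier2, a short-lived nuclear regulator, were not well above background on any of the 36 arrays, where they read at most 5.45 and 5.6, and no change can be given for them. Atf3 was detected on 7 of 36 arrays, 4 of cortex and 3 of medulla. A gene entered a fit if it was detected on at least 3 of its arrays, so 8 members were tested in each tissue. Atf3 passed that filter only through the arrays on which it was high.

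Of the readily measured members, Egr1 stood furthest from its controls in cortex. Its 3 control arrays read 10.29, 11.28 and 10.61, against 8.71, 9.52 and 9.64 at 1.3 MBq and 8.64, 9.76 and 9.43 at 3.6 MBq. All 6 arrays of these low activities lay below all 3 controls. At 14 MBq the arrays read 9.91, 10.33 and 11.32, at 45 MBq 10.04, 10.23 and 9.92, and at 140 MBq 10.65, 10.93 and 10.51. The 140 MBq arrays lay among the controls and above every array at 1.3 and 3.6 MBq.

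Against 0 MBq, cortical Egr1 differed by -1.44 ± 0.37 on the log2 scale at 1.3 MBq, which is 2.71-fold lower (limma, adjusted p = 0.105). At 3.6 MBq the difference was -1.45 ± 0.37 (limma, adjusted p = 0.101), and at 14, 45 and 140 MBq it was -0.21, -0.67 and -0.03. Neither of the first 2 passed the adjusted threshold of 0.05. Without control replicate 2 the differences at 1.3 and 3.6 MBq were -1.16 and -1.18 (limma, adjusted p = 0.292 and 0.294). In the order of the cortical group means (0, 140, 14, 45, 1.3 and 3.6 MBq) only the step between 45 and 1.3 MBq, 10.06 to 9.29, exceeded the pooled SD within groups of 0.49.

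In medulla the Egr1 controls read 10.18, 12.48 and 10.42, the 1.3 MBq arrays 9.55, 9.45 and 10.06, and the 3.6 MBq arrays 8.94, 10.07 and 9.80. Control replicate 2 was far above the other controls, and the 6 low-activity arrays again lay below all 3 controls. At 14 MBq the arrays read 9.93, 10.36 and 11.10, at 45 MBq 9.79, 10.49 and 10.02, and at 140 MBq 10.64, 10.26 and 10.62. The differences from 0 MBq were -1.34 ± 0.47 at 1.3 MBq and -1.43 ± 0.47 at 3.6 MBq (limma, adjusted p = 0.203 and 0.120). Without medulla control replicate 2 they shrank to -0.62 and -0.70 (limma, adjusted p = 0.527 and 0.348). At 14 and 140 MBq the differences of -0.56 and -0.52 turned to 0.17 and 0.20 without that array.

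**Figure D1:**
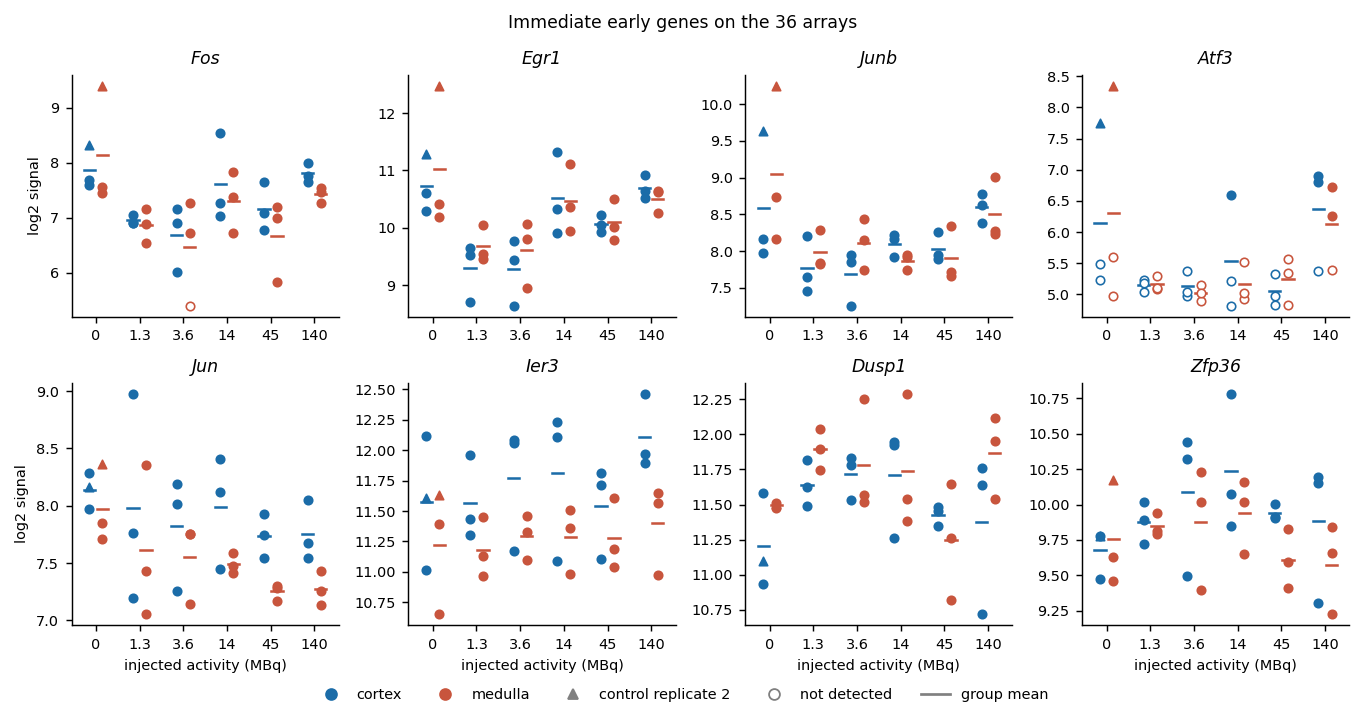
Normalised log2 signal (vertical axis) of the 8 members that entered the fits on each array against injected activity in MBq (horizontal axis, categories), with cortex in blue and medulla in red, group means as lines, control replicate 2 as triangles and undetected values as open circles. Egr1 in cortex lies at 8.64 to 9.76 on the 6 arrays at 1.3 and 3.6 MBq and at 10.51 to 10.93 at 140 MBq, and control replicate 2 is the highest medulla array for Fos, Egr1, Junb and Atf3.

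Fos, the partner of the Jun proteins in AP-1, followed Egr1 closely. In cortex its controls read 7.60, 8.32 and 7.69, its 1.3 MBq arrays 6.90, 7.06 and 6.90, and its 3.6 MBq arrays 6.01, 6.90 and 7.16. The low-activity arrays all lay below the controls. At 14 MBq Fos read 7.03, 7.26 and 8.53, at 45 MBq 6.78, 7.08 and 7.64, and at 140 MBq 7.66, 7.77 and 8.0. The 140 MBq arrays overlapped the controls, and the spread at 14 MBq came from replicate 3, which was also the highest of its group for Egr1.

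The cortical Fos differences from 0 MBq were -0.92 ± 0.36 at 1.3 MBq and -1.18 ± 0.36 at 3.6 MBq, and neither passed the test (limma, adjusted p = 0.324 and 0.175). With control replicate 2 left out they were -0.69 and -0.96. In medulla the controls read 7.57, 9.40 and 7.44, the 1.3 MBq arrays 6.88, 6.55 and 7.17, and the 3.6 MBq arrays 5.41, 6.73 and 7.27. Control replicate 2 stood highest, and the undetected 3.6 MBq array lowest, of all 36. Medullary Fos at 14 MBq read 7.37, 6.73 and 7.83, at 45 MBq 5.84, 7.19 and 7.0, and at 140 MBq 7.47, 7.53 and 7.27. Its differences from 0 MBq were -1.67 ± 0.52 at 3.6 MBq (limma, adjusted p = 0.10) and -1.46 ± 0.52 at 45 MBq (limma, adjusted p = 0.136). Without medulla control replicate 2 they were -1.03 and -0.83, and without medulla control replicate 3 the first became -2.01 and passed (limma, adjusted p = 0.0459). No neighbouring pair of Fos group means, in either tissue, was further apart than the pooled SD within groups (0.48 in cortex and 0.72 in medulla).

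Junb is an AP-1 subunit that often opposes Jun. Its cortex controls read 8.16, 9.64 and 7.98, and its 140 MBq arrays 8.77, 8.63 and 8.39. The 140 MBq arrays lay above controls 1 and 3 and below control 2. At 1.3 MBq Junb read 8.21, 7.64 and 7.46, at 3.6 MBq 7.26, 7.94 and 7.85, at 14 MBq 8.22, 7.92 and 8.16, and at 45 MBq 7.90, 7.95 and 8.26. Cortical Junb at 140 MBq differed from the controls by 0.01 ± 0.34, and with control replicate 2 left out by 0.53 (limma, adjusted p = 0.476).

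In medulla the Junb controls read 8.74, 10.26 and 8.17, the 14 MBq arrays 7.91, 7.95 and 7.74, and the 45 MBq arrays 7.66, 7.71 and 8.34. The 14 MBq arrays lay below every control. At 1.3 MBq medullary Junb read 8.28, 7.84 and 7.82, at 3.6 MBq 8.14, 8.43 and 7.74, and at 140 MBq 9.0, 8.23 and 8.27. The difference at 14 MBq was -1.19 ± 0.39 (limma, adjusted p = 0.0874) and that at 45 MBq -1.15 ± 0.39 (limma, adjusted p = 0.119). These 2 values depended on the controls: without medulla control replicate 2 they were -0.59 and -0.55, and without medulla control replicate 3 they were -1.63 and -1.59 and passed (limma, adjusted p = 0.0158 and 0.0166).

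Atf3, which is nearly silent in unstressed tissue, was detected only without activity, at 14 MBq and at 140 MBq. In cortex the controls read 5.48, 7.75 and 5.22, and only replicate 2 was detected. At 140 MBq the cortex arrays read 6.91, 5.38 and 6.81, with replicates 1 and 3 detected, and the medulla arrays read 6.72, 5.39 and 6.26, with the same 2 replicates detected. Of the 14 MBq arrays only cortex replicate 1 was detected, at 6.59. All arrays at 1.3, 3.6 and 45 MBq were not well above background.

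Because Atf3 was undetected in whole groups, its differences are given as approximate bounds. Each sets the mean of the brighter group against the mean, over the dimmer arrays, of the lowest signal among detected probes or the probe's own signal, whichever was higher. The brighter mean holds replicate 2 at 140 MBq, itself undetected, at its own reading, so these are not strict lower limits. Cortical Atf3 at 140 MBq was by this bound 1.56-fold higher than at 1.3 MBq and 1.43-fold higher than at 3.6 MBq, with 2 of 3 arrays measured. No test is drawn from these differences, since every array at 1.3 and 3.6 MBq was undetected. In medulla Atf3 at 140 MBq was by the same bound 1.42-fold higher than at 1.3 MBq, again with no test. Control replicates 1 and 3 were both undetected for Atf3, and against these the 140 MBq arrays were by that bound 1.58-fold higher in cortex and 1.38-fold higher in medulla, with no test. Fitted values of Atf3 set high arrays against undetected groups, so Atf3 is left out of the counts of marked or separated members that follow, which are over the 7 readily measured members. Counts over all fitted members still hold Atf3, for which they decide nothing.

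Jun, the DNA-binding AP-1 subunit that is phosphorylated by stress kinases, did not follow Fos and Egr1 in cortex. Its cortex arrays spanned 7.20 to 8.98, and the lowest and highest were both at 1.3 MBq. In medulla the Jun controls read 7.71, 8.37 and 7.85, the 45 MBq arrays 7.30, 7.17 and 7.29, and the 140 MBq arrays 7.26, 7.13 and 7.43. The arrays of these 2 activities lay below all 3 controls. The differences were -0.72 ± 0.26 at 45 MBq and -0.70 ± 0.26 at 140 MBq, and neither passed (limma, adjusted p = 0.146 and 0.245). Without medulla control replicate 2 they were -0.52 and -0.50. Medullary Jun at 1.3, 3.6 and 14 MBq differed from the controls by -0.36, -0.42 and -0.48, and replicate 1 at 1.3 MBq, at 8.36, was the highest treated medulla array.

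Dusp1, Zfp36 and Ier3, an inhibitor of stress-induced cell death, were detected on every array, and none of their differences from 0 MBq passed the test. Dusp1 in cortex read 10.94, 11.10 and 11.58 without activity, and its treated group means were 11.37 to 11.71. The cortical differences of Dusp1 from 0 MBq ran from 0.17 to 0.51 and overlapped the controls at every activity. In medulla the 3 Dusp1 controls were unusually close, at 11.47, 11.50 and 11.51, and the arrays at 1.3 MBq (11.75, 12.04 and 11.90), at 3.6 MBq (11.52, 11.57 and 12.25) and at 140 MBq (11.54, 12.12 and 11.95) all lay above them. Dusp1 was the 1 member of 7 above its controls in each, where 9.66%, 11.7% and 9.94% of all genes were, so this is near the share of all genes. The differences of Dusp1 at 1.3 and 140 MBq, 0.40 ± 0.26 and 0.37 ± 0.26, did not pass the test (limma, adjusted p = 0.540 and 0.545), and without control replicate 2 they were 0.40 and 0.38.

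Zfp36 in cortex read 9.48, 9.78 and 9.78 in the controls and 10.78, 10.07 and 9.85 at 14 MBq, which lay above them. That difference, 0.56 ± 0.29, did not pass (limma, adjusted p = 0.368) and was 0.61 without control replicate 2, and the medullary differences of Zfp36 lay between -0.18 and 0.19. Ier3 in cortex read 12.11, 11.60 and 11.01 in the controls and 11.97, 11.89 and 12.46 at 140 MBq, so the groups overlapped, and the difference was 0.53 ± 0.35 (limma, adjusted p = 0.619), or 0.55 without control replicate 2. In medulla the differences of Ier3 from 0 MBq ran from -0.04 to 0.17.

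The comparisons of each activity with 0 MBq in cortex share 3 control arrays. At an adjusted p under 0.05, limma called 0 of the 8 tested members at 1.3, 3.6, 14, 45 or 140 MBq, where it called 0.333%, 0.435%, 1.37%, 0.990% and 0.953% of all 10803 genes tested. At an unadjusted p under 0.05 the same test marked Fos, Junb and Egr1 as lower at 1.3 MBq, 3 of 7 members against 6.41% of all genes, and the same 3 at 3.6 MBq, against 6.37%. No member was marked at 14, 45 or 140 MBq, where 15.6%, 13.1% and 11.5% of genes were marked in either direction. Without control replicate 2, limma called 0 members and marked Egr1 as lower at 1.3 MBq (5.17% of all genes), Egr1 and Fos at 3.6 MBq (4.73%) and Junb as higher at 140 MBq (6.08%). The groups did not overlap for Fos and Egr1 at 1.3 MBq, 2 of 7 members against 9.62% of all genes lower in this way, or for Fos, Junb and Egr1 at 3.6 MBq, 3 of 7 against 6.79%, and the same genes were separate without control replicate 2. In either direction 1, 3 and 0 of 7 members did not overlap at 14, 45 and 140 MBq, against 15.6%, 19.5% and 17.2%. When limma weighted the arrays by their fit, it called 3 members at 1.3 MBq, with Egr1 at -1.67, Fos at -1.14 and Junb at -1.30, and 6 at 3.6 MBq. Those 6 were Egr1 (-1.55), Junb (-1.20) and Fos, lower than the controls, Dusp1 and Zfp36, higher by 0.56 each, and the undetected Atf3. At 3.6 MBq replicate 3 then had a weight of 5.65, against 0.99 for replicate 2 and 0.288 for replicate 1. No share of all genes called is given for these weighted fits, so their calls are not read as a result about the members. Over the 6 cortical groups together, limma's F test called 0 of 8 members (0.722% of all genes) and marked Fos and Egr1 at an unadjusted p under 0.05 (11.8% of all genes).

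**Figure D2:**
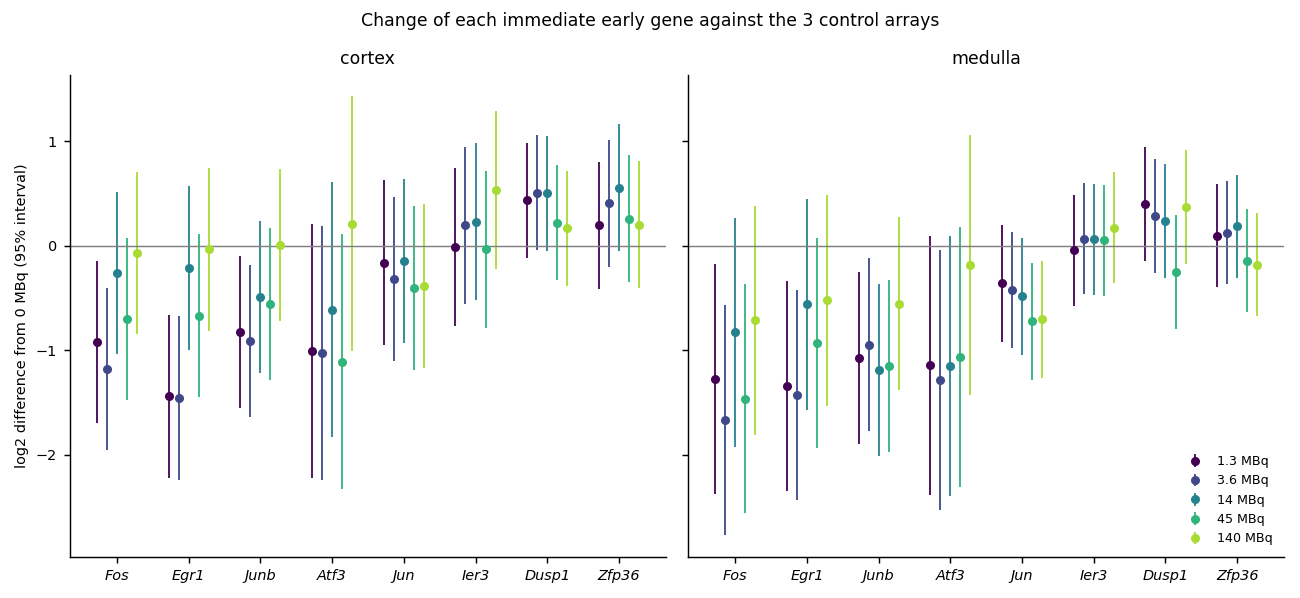
Difference from 0 MBq on the log2 scale (vertical axis) for 8 members, with colours for the 5 activities, cortex on the left and medulla on the right, and bars for the 95% interval of limma. Fos, Egr1 and Junb lie below 0 at 1.3 and 3.6 MBq in both tissues and near 0 at 140 MBq in cortex, where Egr1 is at -0.03.

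In medulla, where the 5 comparisons again share 3 controls, limma called 0 of 8 members at every activity, against 0.773%, 1.92%, 4.36%, 2.36% and 1.51% of all 10869 genes at 1.3, 3.6, 14, 45 and 140 MBq. At an unadjusted p under 0.05 the members marked as lower were Fos, Junb and Egr1 at 1.3 MBq (3 of 7, against 6.04% of all genes) and the same 3 at 3.6 MBq (3 of 7, against 8.92%). Junb was marked at 14 MBq (1 of 7, against 11.8%), Fos, Jun and Junb at 45 MBq (3 of 7, against 9.65%) and Jun at 140 MBq (1 of 7, against 5.90%). Without control replicate 2, limma called 0 of 7 members and marked only Fos as lower at 3.6 MBq (6.81% of all genes). Groups did not overlap, on the lower side, for 2 of 7 members at 1.3 MBq (7.89% of all genes), 2 at 3.6 MBq (7.91%), 2 at 14 MBq (13.3%), 2 at 45 MBq (8.23%) and 1 at 140 MBq (6.80%). Leaving out medulla control replicate 3, the lowest control for Fos and Junb, gave calls for Junb at 1.3, 3.6, 14 and 45 MBq. The differences of Junb were -1.52, -1.39, -1.63 and -1.59. At 3.6 MBq that setting also called Fos, at -2.01, and Atf3, which was undetected on every array there. It keeps control replicate 2, the highest control for Fos and Junb. No share of all genes called is given for it, so these calls are not read as a result about the members. The F test over the 6 medullary groups called 0 of 8 members, against 5.22% of all genes, and marked 0 at an unadjusted p under 0.05, against 25.8%.

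Among treated arrays alone, Egr1, Junb and Fos in cortex had positive slopes that did not pass the adjusted test. The slope per doubling of activity was 0.21 ± 0.05 for Egr1 (limma, adjusted p = 0.0887), 0.12 ± 0.03 for Junb (limma, adjusted p = 0.110) and 0.13 ± 0.05 for Fos (limma, adjusted p = 0.380). None of the 8 members was called (0.728% of all genes were), and these 3 of 7 were marked as higher at an unadjusted p under 0.05, against 5.47% of all genes. Leaving out a single array brought Egr1 past the threshold: without cortex 14 MBq replicate 3, its highest treated array, the slope was again 0.21 and passed (limma, adjusted p = 0.0125). For Junb the slope was 0.14 and passed without cortex 1.3 MBq replicate 1 (limma, adjusted p = 0.0300). No share of all genes called is given for these fits with an array left out. In medulla 7 members could be tested, 0 were called (0.823% of all genes were) and Egr1 alone was marked as higher, with a slope of 0.13 ± 0.04 (limma, adjusted p = 0.228), against 5.84% of genes.

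The highest activity was also compared with the lowest 2, comparisons added after the values had been seen, which leave out the controls and share the 140 MBq arrays. In cortex Fos, Junb and Egr1 at 140 MBq lay above every array at 1.3 MBq, 3 of 7 members where 19.1% of all genes did not overlap in either direction. The same 3 lay above every array at 3.6 MBq, where 6.64% of all genes did. Egr1 was higher by 1.41 ± 0.37 than at 1.3 MBq and by 1.42 ± 0.37 than at 3.6 MBq (limma, adjusted p = 0.149 and 0.221). Limma called 0 of 8 members in both, against 0.454% and 0.278% of all genes, and marked Fos, Junb and Egr1 as higher at an unadjusted p under 0.05 in both, against 5.67% and 3.89%. In medulla the 140 MBq arrays lay above every 3.6 MBq array for Egr1, 1 of 7 members against 10.2% of all genes. There limma called 0 of 8 members in both, against 0.589% and 0.754% of all genes, and marked 0 of 8 at an unadjusted p under 0.05, against 10.8% and 14.2%. Egr1 was higher by 0.82 ± 0.47 and 0.90 ± 0.47 in these medullary comparisons.

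No difference between the tissues was detected for the members. The fits given here took the arrays as unpaired, although same-numbered control arrays deviated together. With same-numbered arrays as a block, 0 members were called as well. At 0 MBq limma called 0 of 8 members between the tissues, against 0.384% of 11471 genes, and marked 0 at an unadjusted p under 0.05, against 9.04%. The largest difference, cortex minus medulla, was that of Junb at -0.46 ± 0.38, with -0.58, -0.61 and -0.19 in the 3 same-numbered pairs and -0.39 without both arrays of control replicate 2. The 95% intervals of the unpaired fit were wide, for Junb from -1.25 to 0.32 and for Egr1 from -1.21 to 0.62. The test of a different response to activity in the tissues called 0 of 8 members and 0% of all genes, and marked 0 of 8 at an unadjusted p under 0.05, against 1.62%. The greatest gap between the tissues' responses was that of Fos at 45 MBq, 0.76 ± 0.67 log2 units.

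Arrays of cortex and medulla with the same activity and number deviated together for every readily measured member except Dusp1. Deviations from the group means were correlated over 18 pairs, with an exact permutation test, two-sided, that exchanged numbers within an activity, and p-values were adjusted over the 8 members. Egr1 had r = 0.76 and rho = 0.73 (exact permutation, adjusted p = 0.00909 and 0.0201) and Zfp36 r = 0.81 and rho = 0.84 (exact permutation, adjusted p = 0.00360 and 0.00137). Without the 2 pairs farthest from the median in cortex these r were 0.72 and 0.69. Junb had r = 0.84, Jun 0.79, Ier3 0.76 and Fos 0.72, with rho of 0.67, 0.69, 0.69 and 0.75 (exact permutation, adjusted p of r between 0.00909 and 0.0178 and of rho between 0.0201 and 0.0330). Atf3 had r = 0.89 and rho = 0.88. It was detected on only 7 of 36 arrays, so most of its deviations are background readings and no test is drawn from them. Without the 2 farthest pairs r was 0.57 for Junb, where control replicates 2 and 3 were the farthest, and 0.52 for Jun, where replicates 1 and 2 at 1.3 MBq were. Dusp1 was the exception, with r = 0.19 and rho = 0.24 (exact permutation, p = 0.483 and 0.408). The labels do not state whether same-numbered arrays came from 1 animal.

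**Figure D3:**
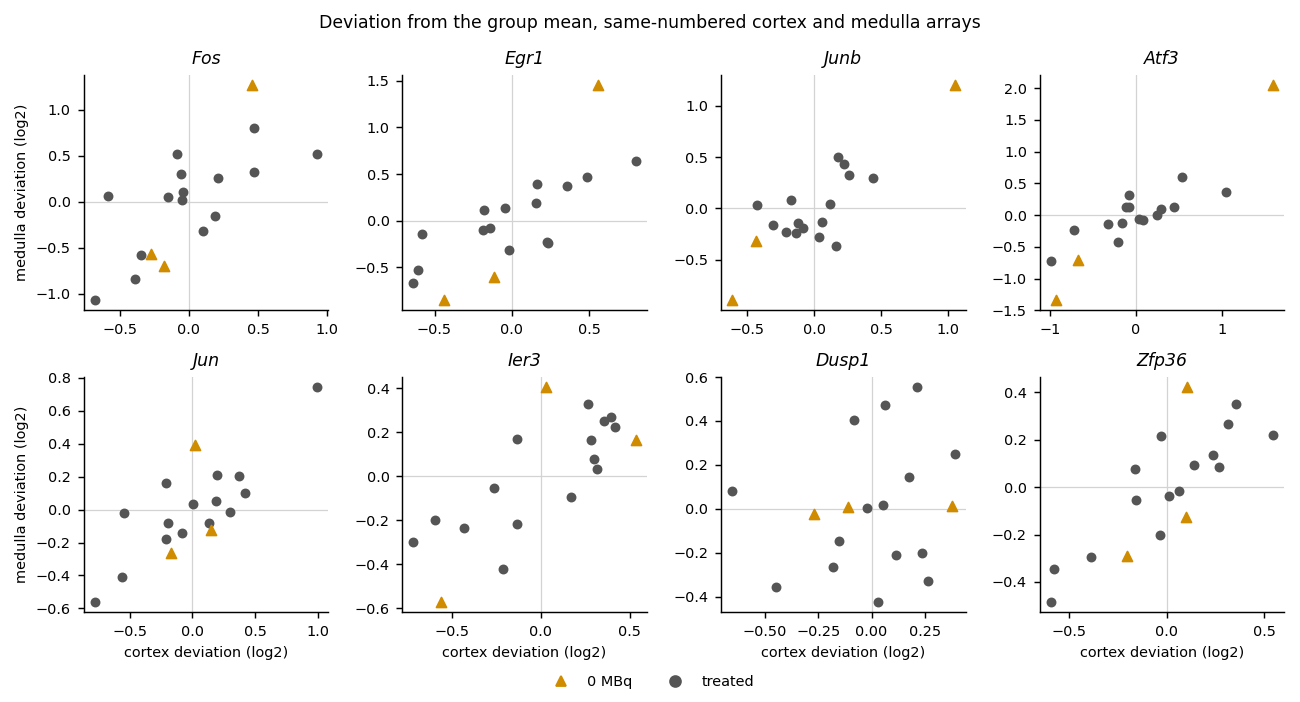
Deviation of each array from the mean of its group on the log2 scale, cortex on the horizontal and medulla on the vertical axis, for 18 same-numbered pairs, with control pairs as triangles and treated pairs as circles. For Atf3 and Junb control replicate 2 lies alone at the upper right (r = 0.89 and 0.84), and for Dusp1 the points show no trend (r = 0.19). Atf3 was detected on 7 of 36 arrays, so most of its points are background readings.

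Across the 18 arrays of a tissue, Fos and Egr1 were the most alike of the members, with a Pearson correlation of 0.87 in cortex and 0.88 in medulla. Junb and Atf3 had 0.76 and 0.85, whereas Fos and Jun had -0.01 and 0.52. Dusp1 and Zfp36 had 0.68 in cortex and 0.32 in medulla, and both stayed between -0.32 and 0.31 with Fos, Junb, Egr1 and Atf3. These values describe arrays that share groups, hybridisation and scaling.

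The mean of the 8 centred members was set beside every other gene over the same 18 arrays. In cortex the 5 most alike were Dcp1b, an mRNA decapping factor, Klf6, itself an early response transcription factor, Neurl1a, the chaperone Clu and the collagen gene Col1a1, with Pearson correlations of 0.82, 0.81, 0.80, 0.79 and 0.78. In medulla they were Klf6, the epithelial gene Sprr2g, the unnamed probe ILMN_2812645, Egr2 and Clu, with 0.92, 0.92, 0.91, 0.89 and 0.89. Klf6 and Clu were in both lists, and in both tissues their highest array was control replicate 2, at 12.53 and 12.81 for Klf6 and 14.45 and 14.12 for Clu. Both were chosen by likeness to the members, so these peaks are not independent of the members' own levels on that array.

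That control array was compared with the other controls gene by gene. It exceeded both by at least 1 log2 unit in both tissues for 42 of 11471 genes, or 0.366%, among them the members Atf3 and Junb, and also Egr2, Ccn1, Socs3, Hbegf and Cxcl1 of the wider immediate early lists. The same count was 132 genes for control replicate 1 and 13 for replicate 3, with 0 members in each. The largest excesses, named after their values were seen, were those of Timp1, the protease inhibitor (3.28 in cortex and 3.25 in medulla), Lcn2, the tubular injury marker (3.25 and 3.45), the chemokine gene Cxcl1 (2.70 and 3.89), Sprr2g (3.01 and 2.63) and Krt20 (2.28 and 3.89), with Atf3 at 2.27 and 2.76. Lcn2 and Timp1 were not confined to that array, since at 140 MBq their cortex means were 9.66 and 6.79, against 6.95 and 5.38 at 1.3 MBq.

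Other cell types and RNA handling were followed on the same arrays through marker lists. On control replicate 2 the 12 measured myeloid markers averaged 0.90 above their 36-array mean in cortex and 1.72 in medulla, and on control replicate 1 they averaged 1.59 and 2.19. The 7 measured smooth muscle and fibroblast markers averaged 0.72 and 0.67 on control replicate 2, with 1.77 on the highest cortex array at 140 MBq. Summed myeloid signal ran from 4235 to 19584 over the cortex controls. It ran from 2852 to 6365 at 1.3 MBq, 2666 to 3221 at 3.6 MBq, 1583 to 5663 at 14 MBq, 1650 to 5042 at 45 MBq and 4911 to 8888 at 140 MBq. In medulla it ran from 13255.5 to 34089.3 over the controls and from 15452.5 to 18257 at 140 MBq. At 1.3, 3.6, 14 and 45 MBq the medulla ranges were 8589 to 10548, 5415 to 13026, 5966 to 8767 and 6394 to 10584. The 11 measured heat shock genes averaged -0.01 and 0.10 on control replicate 2. The part of these cells in the levels of the members was not tested.

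**Figure D4:**
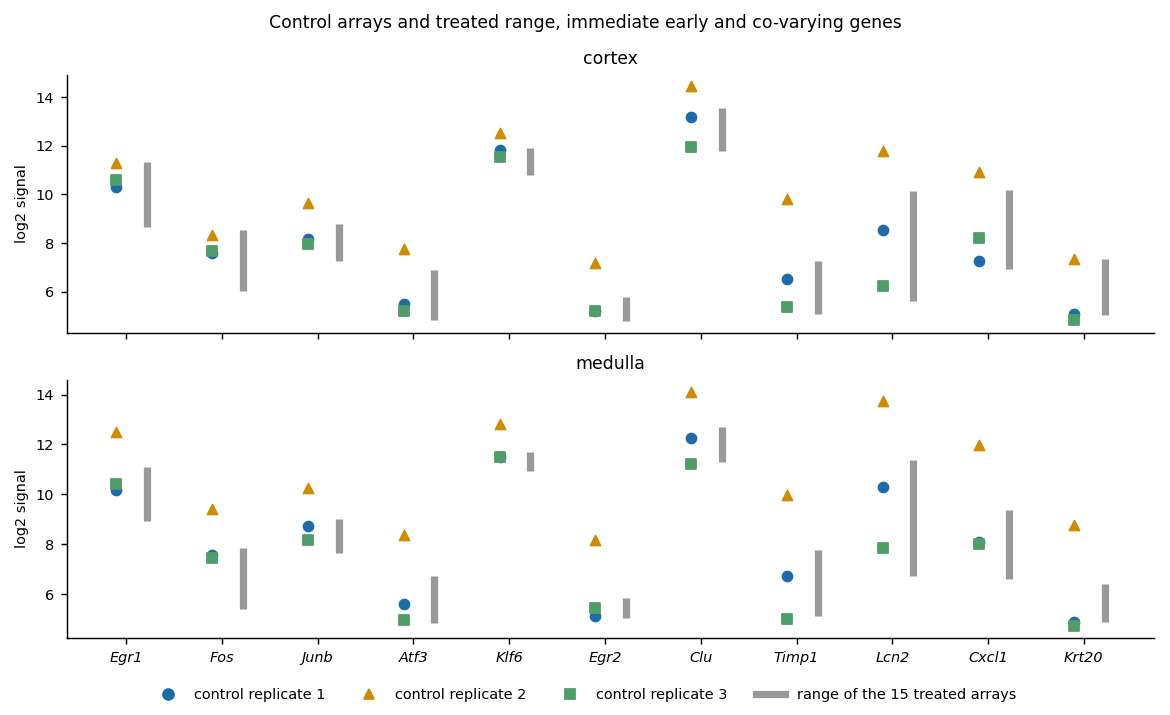
Log2 signal (vertical axis) on the 3 control arrays of each tissue (symbols) for 4 members and 7 other genes (horizontal axis), beside the range of the 15 treated arrays (grey bars), cortex above and medulla below. Klf6, Egr2 and Clu were taken as genes that varied with the members, and Timp1, Lcn2, Cxcl1 and Krt20 for their excess on control replicate 2. Control replicate 2 is the highest control for all 11 genes in both tissues, which for Timp1, Lcn2, Cxcl1 and Krt20 follows from how they were chosen. For Klf6, Egr2 and Clu it is not independent of the members, since these genes were chosen by likeness to the members' mean. It lies above all treated arrays for Junb, at 9.64 in cortex and 10.26 in medulla.

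The wider immediate early programme was read from 2 further lists. Of 27 other immediate early transcription factors, 16 were tested in each tissue. They included Egr2 and Klf6, while Nr4a1, Nr4a2, Nr4a3, Egr4, Npas4 and Fosl1 were on the array and were not kept. Limma called 0 of the 16 at any activity in cortex, with 4, 4, 5, 4 and 0 marked as lower at an unadjusted p under 0.05 from 1.3 to 140 MBq, against 6.41%, 6.37%, 9.36%, 6.91% and 4.84% of all genes. The marked counts were 0, 2, 2, 2 and 0 of 15 without control replicate 2, against 5.17%, 4.73%, 7.75%, 5.20% and 4.38% of all genes. Their median difference at 1.3 MBq was -0.25, beside -0.02 over all genes, and without control replicate 2 it was -0.02, beside -0.01. In medulla 2 of the 16 were called, both at 14 MBq: Mafk, a small Maf factor, rose by 1.45 ± 0.25 and Hes1, a repressor downstream of Notch, fell by 0.74 ± 0.14 (limma, adjusted p = 0.00861 and 0.0146). Over all genes 4.36% were called in that comparison, and both stayed called without control replicate 2.

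Of 40 other immediate early effectors 30 were tested, and limma called 0, 1, 2, 2 and 3 of them as higher and 0, 0, 1, 1 and 0 as lower in cortex from 1.3 to 140 MBq. In medulla the counts were 0, 1, 1, 2 and 2 higher and 0, 2, 2, 1 and 0 lower. Over all genes 0.333% to 1.37% were called in cortex and 0.773% to 4.36% in medulla, in either direction. Without control replicate 2 no effector was called as lower in either tissue, and 0, 1, 1, 2 and 2 were called as higher in cortex and 1, 1, 3, 2 and 2 in medulla. Over all genes 0.0932% to 0.420% were then called as higher in cortex and 0.296% to 1.30% in medulla. Per1, a clock gene that is also induced by serum and glucocorticoids, rose in cortex by 1.56 ± 0.27, 2.00 ± 0.27, 1.54 ± 0.27 and 1.65 ± 0.27 at 3.6, 14, 45 and 140 MBq (limma, adjusted p between 0.00270 and 0.0145). In medulla Per1 rose at the same 4 activities, by 1.17 to 1.84. Its call held in all 8 comparisons without control replicate 2, with differences of 1.39 to 2.23. Plk2, a polo-like kinase that is also a p53 target, rose at 140 MBq by 2.64 ± 0.28 in cortex and 1.69 ± 0.18 in medulla (limma, adjusted p = 8.74e-05 and 0.000101), and without control replicate 2 by 2.65 and 1.83, which also passed. Sgk1, the serum- and glucocorticoid-induced kinase, rose in cortex at 140 MBq by 1.07 ± 0.22 (limma, adjusted p = 0.0313), a call lost without control replicate 2 (limma, adjusted p = 0.114).

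Socs3, the feedback inhibitor of cytokine signalling, fell in medulla by 2.41 ± 0.57 at 3.6 MBq and by 2.32 ± 0.57 at 14 MBq (limma, adjusted p = 0.0429 and 0.0349), from controls that ranged from 7.50 to 10.88 with replicate 2 highest. Without that array the differences of Socs3 were -1.52 and -1.43 and did not pass (limma, adjusted p = 0.102 and 0.0757). In cortex Nfkbiz, an NF-kappaB cofactor, fell at 45 MBq by 1.08 ± 0.24 (limma, adjusted p = 0.0411), and the difference was -0.79 without control replicate 2 and did not pass (limma, adjusted p = 0.156). The kinases, SRF cofactors and CREB cofactors that induce these genes gave 0 calls among 16 tested in cortex and 15 in medulla at any activity against 0 MBq, with medians between -0.07 and 0.10 on the log2 scale. At an unadjusted p under 0.05, limma marked 1 to 3 of them as higher and 0 to 1 as lower at each activity. Over all genes, 5.76% to 7.23% were marked as higher in cortex, and 7.66% or more at each activity in medulla. As lower, 4.84% to 9.36% of all genes were marked in cortex and 5.90% to 11.8% in medulla. Whether the counts of these inducing genes exceed such shares was not tested.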

How the data were processed

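Messenger RNA was measured on Illumina bead arrays in 36 samples, grouped by their titles into 12 groups of 3. The deposited table holds linear probe intensity values, per the file headers without normalisation, and beside each a deposited detection p-value, here in 798 steps. A second deposited intensity table, normalised by the authors in a way not given in the sources used here, served as an alternative.

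Intensities were background-corrected, quantile-normalised (offset 16) and taken to log2 by the neqc function (R 4.3.3, limma 3.58.1). Tables and figures used pandas 2.3.3 and matplotlib 3.10.9. Genes with a detection p under 0.05 on at least 3 arrays of a fit were kept, each as its brightest probe. Unnamed probes keep their identifiers. Each tissue was fitted with limma (12 residual degrees of freedom), the slope on log2 activity on treated arrays (13), and tissues together (24), with Benjamini-Hochberg adjustment over all genes tested. Errors after ± are limma's standard errors. The procedure was tested on simulated data.

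The members and lists were chosen with earlier results of these data known. All 10 members are named, with up to 6 called genes of the immediate early lists and 4 of other lists by smallest p, the 5 genes most alike per tissue, and Cdkn1a. The fits were repeated on the authors' normalised table, with the background left in, without a detection filter or with one that asks all arrays of some group for a p below 0.01, and with every probe or the probe mean. They were also repeated with other samples in the fit, array weights, activity ranks, calls past 0.01 and 1.5-fold, the replicate number as a block, and each array left out. The repeat of the lists without control replicate 2 was chosen after seeing the data. Array number limits precision. Same-numbered control arrays of cortex and medulla had correlations of their deviations of 0.613 to 0.659, so numbers pair the tissues at 0 MBq, as read from these values. Promoter windows are RefSeq's for GRCm38.p6.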

Additional observations from a re-analysis of the deposited data

How the results depend on the processing

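The members' calls against 0 MBq were 0 in all planned comparisons, and 380 of 393 counts recomputed under the alternatives were also 0. Array weights ran from 0.288 to 5.65 and gave cortex 3.6 MBq replicate 3 the most. They changed 6 counts, given here without a share of all genes and so not read as results about the members. Cortex 1.3 MBq gave 3 members (Egr1 -1.67, Fos -1.14, Junb -1.30) and cortex 3.6 MBq gave 6, the undetected Atf3 among them. The cortical F test gave 3 and the cortical slope 2 (Egr1 0.20, Junb 0.12). Cortex 140 MBq against 1.3 and against 3.6 MBq gave 1 each (Egr1 1.37 and 1.26). With each array left out in turn, the count ranged from 0 to 1 for the cortical F test and slope (Egr1 without cortex 14 MBq replicate 3, Junb without cortex 1.3 MBq replicate 1) and for medulla 1.3, 14 and 45 MBq, and from 0 to 3 for medulla 3.6 MBq, all without medulla control replicate 3 (Atf3 among them, with every 3.6 MBq array undetected); elsewhere it stayed at 0. No share of all genes is given for these leave-one-out counts either. With the replicate number as a block, 0 members were called in every comparison, so the block changed no call.

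Among 3082 single values 3049 kept their direction and their side of the threshold, 25 passed it and 8 turned, the last all with 1 array left out. With each array left out, Atf3 and Junb at 14 MBq in cortex ranged from -1.14 to 0.19 and from -0.80 to 0.034, Egr1 at 14 and 140 MBq in medulla from -0.98 to 0.17 and from -0.94 to 0.20, and Junb at 140 MBq in medulla from -0.997 to 0.048. Each of these turned without control replicate 2 of its tissue, after which no control was above background for Atf3. Junb between tissues ranged from -0.99 to 0.14 and turned without medulla control replicate 2, a setting that splits a same-numbered pair; without both arrays of that pair it was -0.39. Dusp1 in cortex at 140 against 1.3 MBq ranged from -0.46 to 0.057 and turned without cortex 140 MBq replicate 3, and Jun in medulla at 140 against 1.3 MBq ranged from -0.62 to 0.027 and turned without medulla 1.3 MBq replicate 1. With control replicate 2 of both tissues left out, an alternative added after seeing the data, 0 members were called between tissues and in the test of different responses. The cause of these shifts was not tested. Signals near background limit Atf3, Fosb and Ier2.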

Other observations

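Heat shock genes, which cells induce when proteins misfold, were called in 1 group against 0 MBq. In medulla at 14 MBq, limma called 3 of 11 tested as higher, in the comparison with the most calls over all genes (4.36%): Hspa5, an endoplasmic reticulum chaperone, rose by 1.66 ± 0.44, Hsp90aa1 by 1.65 ± 0.45 and Hspb1 by 0.98 ± 0.24 (limma, adjusted p = 0.0450, 0.0493 and 0.0359). Without control replicate 2 Hspb1 alone stayed called, at 1.26, with Hspa5 at 1.76 and Hsp90aa1 at 1.70. The list's median there was 0.50, beside -0.02 over all genes, whereas in cortex at 14 MBq limma called 0 of 11, with 0 marked at an unadjusted p under 0.05. The difference between the tissues in these genes gave 0 calls. In that same medullary group Junb differed from the controls by -1.19 and Dusp1 by 0.24, and neither passed the test.

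Of the other AP-1 and ATF family genes, Nfe2l2, the regulator of antioxidant genes, had a medullary slope of 0.09 ± 0.02 per doubling of activity that passed the test (limma, adjusted p = 0.0437), 1 of 9 genes tested. Thbs1, an early gene that encodes a matrix protein, differed between the tissues at 0 MBq by -1.29 ± 0.24, cortex minus medulla (limma, adjusted p = 0.00910), and was the 1 gene called among 32 effectors. Jun was high on replicate 1 at 1.3 MBq in both tissues, at 8.98 and 8.36, while Egr1 on those arrays was 8.71 and 9.55.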
